A study of Ovis aries with 8 samples.

Results

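Acute phase genes were followed in the liver of fattening lambs, as 10 of the 27729 gene rows of the deposited expression table. They are the serum amyloid A genes LOC101120204 and LOC105601867, the haptoglobin gene LOC101102413, ORM1, CRP, LBP, ITIH3, ITIH4, IL1RN and SOCS3. The rows were picked by symbol, by someone who already knew results of these data, so their levels are given as a description and support nothing further. Livers of 8 lambs were measured by sequencing of poly(A)-selected RNA, 4 lambs labelled RES and 4 labelled ADL, and the labels do not spell either name out. By its title, the series concerns fattening lambs and feed restriction in the suckling period. All 8 lambs shared a slaughter weight of 27 kg. The labels used here give no breed, age or sex, and no treatment beyond the group name. A gene was tested where its level averaged 1 TPM or more, which 13437 genes did, all 10 of these among them.

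The acute phase response is the change in plasma proteins that follows infection, injury or stress. Macrophages and other cells release interleukin-6, interleukin-1 and tumour necrosis factor, and hepatocytes answer by raising the transcription of positive acute phase genes through STAT3, NF-kB and C/EBP factors, while genes such as those of albumin and transferrin are turned down. In ruminants serum amyloid A and haptoglobin are the most inducible of these proteins. The response is held in check by inhibitors such as SOCS3, which blocks signalling from the interleukin-6 receptor, and the interleukin-1 receptor antagonist encoded by IL1RN.

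Each library held 14514084 to 16182407 reads assigned to genes, and the mitochondrial genes took 5.27 to 8.32% of all TPM (a read count per gene length, scaled so that each library has the same total). All 10 hepatocyte markers were measured, and together they reached 146549 to 189151 TPM in RES livers and 182628 to 209773 TPM in ADL livers, as the tissue label says. In whole liver, fewer cells of a type and less RNA per cell cannot be told apart.

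LOC101120204, a serum amyloid A gene, spanned the widest range of the 10 genes. Serum amyloid A is a small lipid-binding protein that hepatocytes load onto high-density lipoprotein during inflammation. LOC101120204, which carries the alias SAA1 in the table, stood at 7146, 22407, 389 and 351 TPM in RES lambs 1 to 4, against 36.6, 242, 62.5 and 412 TPM in ADL lambs 1 to 4. RES lambs 1 and 2 lay far above the other 6 lambs, while RES lambs 3 and 4 lay below ADL lamb 4, so the groups overlapped. The highest liver had 613 times the level of the lowest. In RES lamb 2 it ranked 2 among all genes by TPM, and in ADL lamb 1 it ranked 2390.

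LOC105601867, the neighbouring serum amyloid A gene, stood at 3674, 11128, 643 and 763 TPM in RES lambs 1 to 4, against 68.8, 1096, 149 and 1541 TPM in ADL lambs 1 to 4. The same RES lambs were highest and the same ADL lambs, 1 and 3, were lowest. RES lambs 3 and 4 lay below ADL lambs 2 and 4. The 2 genes together made up 3.35% of all TPM in RES lamb 2, 1.08% in RES lamb 1 and 0.103 and 0.111% in RES lambs 3 and 4, against 0.0105 to 0.195% in the ADL lambs.

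Which of the 2 genes dominated also differed between livers. The level of LOC101120204 divided by that of LOC105601867 was 1.95, 2.01, 0.605 and 0.461 in RES lambs 1 to 4, against 0.532, 0.221, 0.419 and 0.268 in ADL lambs 1 to 4. Only in RES lambs 1 and 2 did LOC101120204 exceed its neighbour, and RES lamb 4 lay within the ADL range. LOC101120204 is annotated on chromosome 21 from 25716123 to 25719130 (minus strand, 4 exons) and LOC105601867 from 25728006 to 25732756 (plus strand, 4 exons), in the coordinates of the deposited annotation, for which no label or header names the build. How reads that match both genes were counted is not stated either, so the split between them is uncertain.

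**Figure D1:**
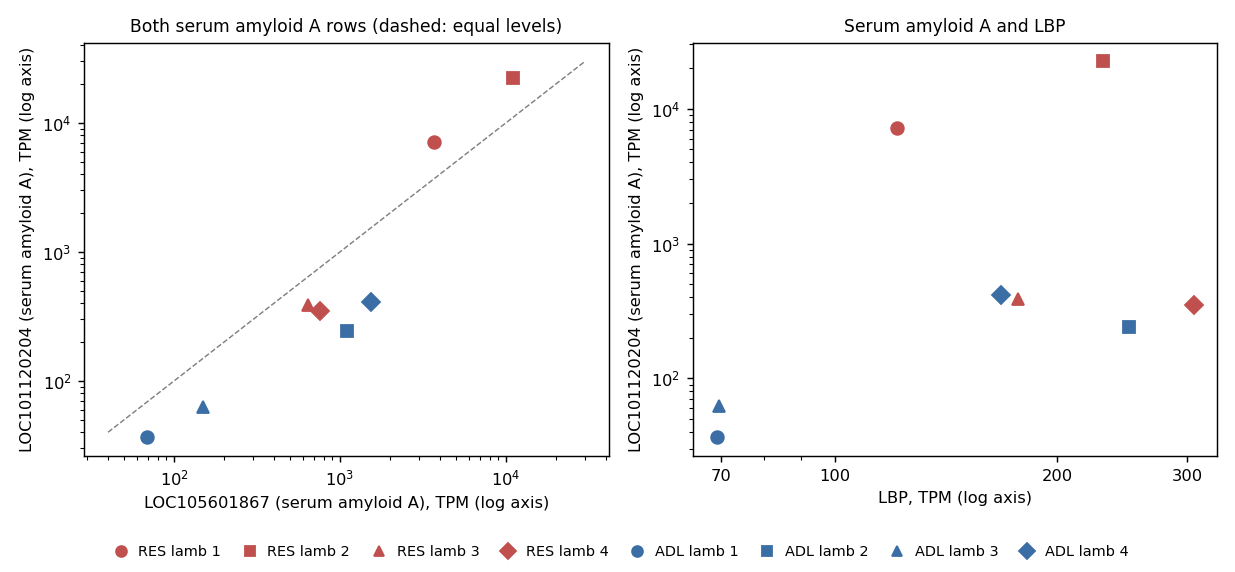
Levels of the serum amyloid A gene LOC101120204 (vertical axes, TPM, log scale) against those of LOC105601867 (left panel) and LBP (right panel; both horizontal axes in TPM, log scale), 1 point per lamb, RES in red and ADL in blue. RES lambs 1 and 2 are the points above the dashed line of equal levels on the left, and on the right RES lamb 1 combines a high level of LOC101120204 with 121 TPM of LBP.

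The other 3 serum amyloid A rows of the table lie beside these genes, all 5 within 70249 bases, and were looked up after the values had been seen. LOC101121216, described as serum amyloid A protein-like, stood at 32.4, 122, 19.96 and 36.4 TPM in RES lambs 1 to 4, against 16.8, 37.3, 26.3 and 22.9 TPM in ADL lambs 1 to 4. Its highest liver was again RES lamb 2, but the range over the 8 lambs was 7.26-fold. LOC101120613, described as serum amyloid A-4, which in humans is made constitutively, lay between 51.3 and 98.5 TPM in RES and between 30.5 and 89.3 TPM in ADL. LOC105604171, serum amyloid A protein-like, stayed at or below 8.17 TPM in each liver.

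Haptoglobin, which binds free haemoglobin and so keeps its iron from microbes, was likewise highest in RES lamb 2 and lowest in ADL lambs 1 and 3. LOC101102413 stood at 954, 4179, 372 and 423 TPM in RES lambs 1 to 4, against 17.5, 416, 87.6 and 1745 TPM in ADL lambs 1 to 4. RES lamb 2 was highest, but ADL lamb 4 came second, above the remaining 3 RES lambs. The ADL lambs alone spanned 99.6-fold, the widest range of the 10 genes within that group. The gene is annotated on chromosome 14 from 38248935 to 38255434.

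ORM1 encodes orosomucoid, an acid glycoprotein that carries lipophilic drugs and steroids in plasma. It stood at 361, 2006, 133 and 13.5 TPM in RES lambs 1 to 4, against 3.46, 52.3, 4.19 and 38.4 TPM in ADL lambs 1 to 4. RES lambs 1 to 3 were above all 4 ADL lambs, and RES lamb 4 was below ADL lambs 2 and 4. Within RES the gene spanned 149-fold, more than any other of the 10. The lowest level, in ADL lamb 1, rested on 20 reads.

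CRP, by contrast, was abundant in every liver. C-reactive protein is a pentraxin that binds phosphocholine on bacteria and dying cells; in humans it is a strong acute phase reactant. It stood at 2260, 2694, 2640 and 3234 TPM in RES lambs 1 to 4, against 1761, 2416, 1708 and 1939 TPM in ADL lambs 1 to 4. RES lambs 2 to 4 were above all ADL lambs, and RES lamb 1 was below ADL lamb 2. CRP exceeded both serum amyloid A genes in 6 of the 8 livers, and both exceeded it in RES lambs 1 and 2.

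LBP encodes the plasma protein that hands bacterial lipopolysaccharide to CD14. Its level was 121, 230, 177 and 306 TPM in RES lambs 1 to 4, against 69.1, 250, 69.7 and 168 TPM in ADL lambs 1 to 4. RES lamb 4 and ADL lamb 2 were highest, ADL lambs 1 and 3 lowest, and the groups overlapped. RES lamb 1, which ranked 2 of the 8 lambs for both serum amyloid A genes, ranked 6 for LBP.

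The inter-alpha-trypsin inhibitor heavy chains are plasma proteins of the extracellular matrix, and ITIH3 can be linked to hyaluronan. ITIH4, an acute phase protein in cattle and pigs, stood at 604, 825, 586 and 751 TPM in RES lambs 1 to 4, against 476, 668, 543 and 579 TPM in ADL lambs 1 to 4. RES lambs 2 and 4 were above all ADL lambs and the other RES lambs lay inside the ADL range. ITIH3 stood at 2064, 1900, 1701 and 1710 TPM in RES lambs 1 to 4, against 1826, 1740, 2219 and 1475 TPM in ADL lambs 1 to 4. It was the steadiest of the 10, with a range of 1.5-fold, and its extremes were both ADL lambs. The pair is annotated side by side on chromosome 19, ITIH4 from 48049358 to 48066700 and ITIH3 from 48069483 to 48083412.

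The 2 inhibitors were expressed at low levels. IL1RN stood at 27.8, 17.5, 16.9 and 16.8 TPM in RES lambs 1 to 4, against 14.5, 26.5, 21.0 and 17.1 TPM in ADL lambs 1 to 4. RES lamb 1 and ADL lamb 2 stood apart at the top, livers that ranked 2 and 6 for LOC101120204. SOCS3 stood at 9.14, 22.7, 19.1 and 18.7 TPM in RES lambs 1 to 4, against 6.81, 19.96, 9.39 and 19.8 TPM in ADL lambs 1 to 4. RES lamb 1, ADL lamb 1 and ADL lamb 3 had the low values and the other 5 lambs lay between 18.7 and 22.7 TPM. These values rest on 43 to 151 reads per lamb.

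**Figure D2:**
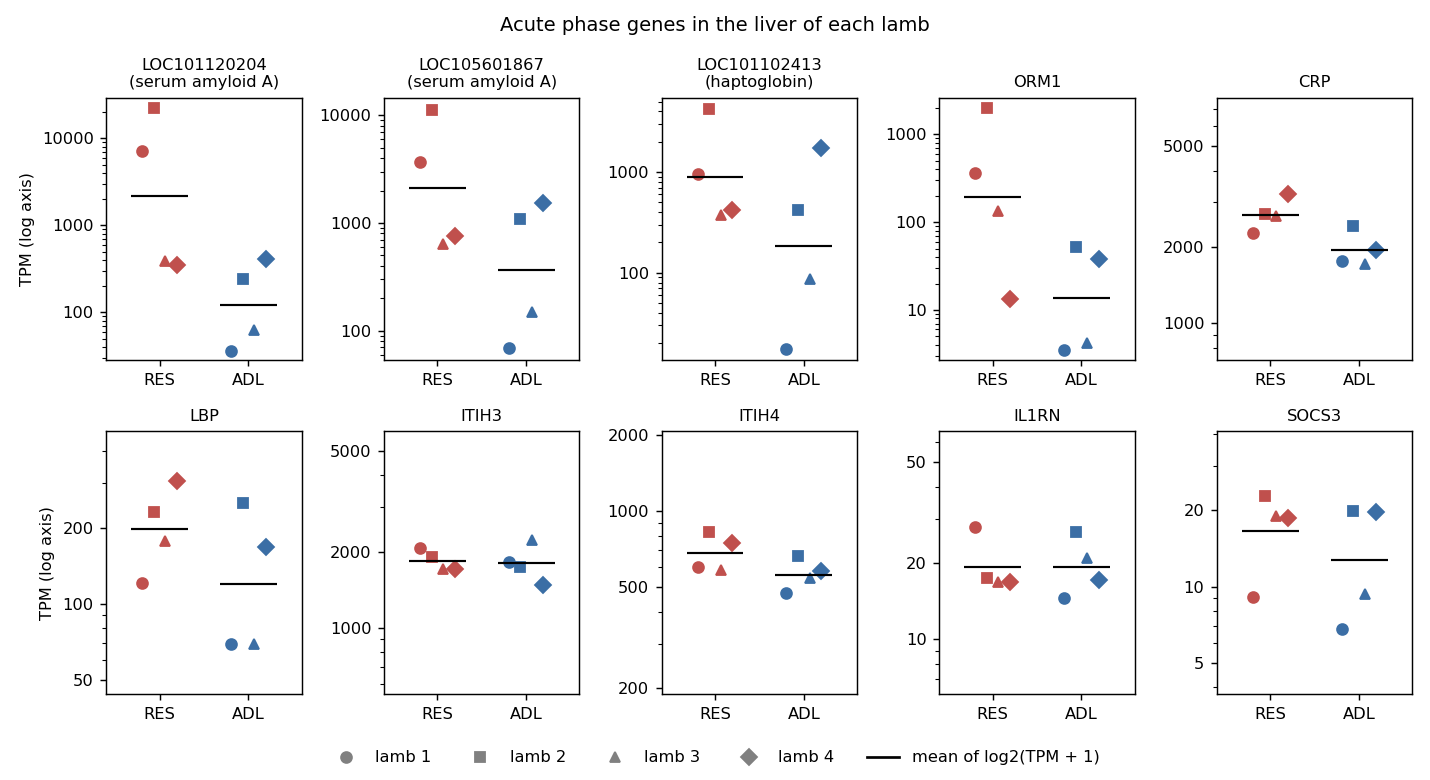
TPM (log axis, scaled for each gene) of the 10 acute phase genes in each lamb, RES left of ADL, with lambs 1 to 4 as different symbols and the mean of log2(TPM + 1) as a line. The groups overlap for each gene; the serum amyloid A genes, haptoglobin and ORM1 run over more than 100-fold, while CRP, ITIH3, ITIH4 and IL1RN stay within 2-fold.

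RES livers were then set against ADL livers, at the same slaughter weight. None of the 10 was called at an adjusted p under 0.05 by limma on log2(TPM + 1), where 0% of all 13437 tested genes were called. At an unadjusted p under 0.05 there were 3 of the 10, LOC101120204, ORM1 and CRP, all higher in RES, beside 10.4% of all genes on that side, 1.5% on the lower side and 11.9% in either direction. After size-factor scaling these shares of all genes were 3.4% higher and 4.25% lower, and after quantile normalization 3.12% higher and 4.43% lower. The groups did not overlap for 0 of the 10, against 7.39% of all genes, of which 6.61% were higher in RES and 0.781% lower. Among genes with an adjusted p in the authors' deposited table, 0.231% were under 0.05, and none of the 10 was. Since members were chosen with results known, these counts describe the genes and are no test of the list.

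Although none was called, the differences of 4 genes were among the 6 largest of the 13437 on the higher side. LOC101120204 averaged 7573 ± 10392 TPM in RES and 188 ± 175 TPM in ADL (mean ± SD, n = 4 each, here and below), and its log2 difference of 4.12 ± 1.39 (SE) was the largest of all (limma adjusted p = 0.395). ORM1 ranked 2, at 628 ± 930 TPM in RES and 24.6 ± 24.7 TPM in ADL (3.71 ± 1.43, limma adjusted p = 0.408). LOC105601867 ranked 3, at 4052 ± 4921 TPM in RES and 714 ± 722 TPM in ADL (2.54 ± 1.19, limma adjusted p = 0.434). Haptoglobin ranked 6, at 1482 ± 1817 TPM in RES and 567 ± 805 TPM in ADL (2.26 ± 1.32, limma adjusted p = 0.492). Differences of at least 1 log2 unit on the higher side were found in 0.305% of all genes.

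The spread between lambs of the same group was wide for the same 4 genes. The SD within groups on the log2 scale was 2.42 for LOC101120204, 2.07 for LOC105601867, 2.30 for haptoglobin and 2.49 for ORM1, where the median tested gene had 0.181. By this SD the 4 genes ranked 6, 11, 8 and 5 among the 13437, from the widest down. The 95% confidence interval of the log2 difference, not adjusted for the number of genes, ran from -0.72 to 5.25 for haptoglobin and from 0.98 to 7.26 for LOC101120204. Without RES lamb 2 the difference of LOC101120204 was 3.00, and without ADL lamb 1 that of haptoglobin was 1.15.

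The remaining 6 genes differed less. CRP averaged 2707 ± 401 TPM in RES and 1956 ± 322 TPM in ADL, a log2 difference of 0.47 ± 0.15 (limma adjusted p = 0.395). LBP had 209 ± 78.8 TPM in RES and 139 ± 87.3 TPM in ADL (0.72 ± 0.44, limma adjusted p = 0.511), and the difference was 0.46 without ADL lamb 1 or without ADL lamb 3. ITIH4 had 692 ± 116 TPM in RES and 566 ± 80.1 TPM in ADL (0.28 ± 0.15, limma adjusted p = 0.458). SOCS3 had 17.4 ± 5.80 TPM in RES and 14.0 ± 6.87 TPM in ADL (0.36 ± 0.37, limma adjusted p = 0.690), and the difference was 0.085 without ADL lamb 1. IL1RN, at 19.7 ± 5.36 TPM in RES and 19.8 ± 5.21 TPM in ADL, differed by -0.0013 ± 0.21 (95% interval from -0.47 to 0.47, not adjusted). ITIH3, at 1844 ± 173 TPM in RES and 1815 ± 308 TPM in ADL, differed by 0.033 ± 0.14, and by -0.070 after division by size factors.

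Of the 10 genes, 9 lay higher in RES and 1 lower, or 8 and 2 after size-factor scaling, while 71% of all tested genes lay higher, or 51.6% after that scaling. The median log2 difference was 0.60 for the 10 and 0.095 for all tested genes. Division by size factors moved these medians to 0.49 for the 10 and 0.0056 for all tested genes.

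**Figure D3:**
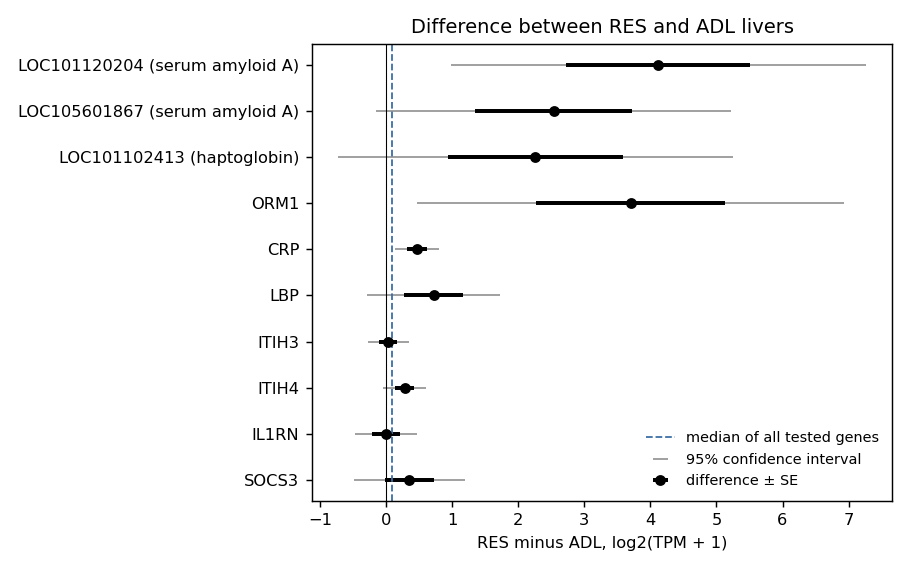
Difference between RES and ADL livers for each gene on the log2(TPM + 1) scale (horizontal), with the SE as a thick bar and the unadjusted 95% confidence interval as a thin one (n = 4 lambs per group); the dashed line marks the median of all tested genes. The upper 4 genes have the largest differences and the widest intervals, and none of the 10 passed the adjusted threshold.

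The authors' deposited table gives log2 fold changes, RES over ADL, both unshrunken and shrunken towards 0. LOC101120204 has 5.27 unshrunken and 0.19 ± 0.088 (SE) shrunken in the authors' deposited table (adjusted p = 0.441). For ORM1 the authors' deposited table gives 4.62 unshrunken and 0.17 ± 0.085 shrunken (adjusted p = 0.480). CRP, which varied far less between lambs, has 0.37 unshrunken and 0.31 ± 0.12 shrunken in the authors' deposited table (adjusted p = 0.304), the largest shrunken value of the 10. Haptoglobin has no p in the authors' deposited table and SOCS3 no adjusted p. ITIH3 and IL1RN are lower in RES in the authors' deposited table, at -0.071 and -0.075 shrunken.

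Across the 8 lambs the genes moved in more than 1 pattern. Pearson's r of log2(TPM + 1) was positive for 37 of the 45 pairs of genes, with a median of 0.51. After Benjamini-Hochberg adjustment over the 45 pairs, 8 passed 0.05 by the two-sided exact permutation test of r, and 4 after size-factor scaling. By Spearman's rho 0 of the 45 passed, the smallest adjusted exact permutation p being 0.0513. The pairs share the same libraries and scaling, and the genes were chosen with earlier results known, so these p-values describe the 8 lambs.

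The 6 pairs among both serum amyloid A genes, haptoglobin and ORM1, put together after their correlations were seen, had r between 0.83 and 0.96 and rho between 0.71 and 0.95. Of these pairs 5 passed. LOC105601867 and haptoglobin had r = 0.96 (exact permutation p = 0.000645, adjusted 0.0145) and rho = 0.95 (exact permutation p = 0.00114, adjusted 0.0513). The 2 serum amyloid A genes had r = 0.95 (exact permutation p = 0.00114, adjusted 0.0171) and rho = 0.90 (exact permutation p = 0.00456, adjusted 0.0543). Because the counting of reads that match both genes is not stated, this correlation is as uncertain as the split between them. LOC101120204 and ORM1 had r = 0.95 (exact permutation p = 0.000496, adjusted 0.0145) and rho = 0.88 (exact permutation p = 0.00724, adjusted 0.0543). Without the 2 lambs farthest from the median of the first gene of a pair, r of the 6 pairs lay between 0.62 and 0.95. As deviations from the group means it lay between 0.77 and 0.95. Over the 45 pairs, however, 0 passed without RES lamb 2 and 0 without ADL lamb 1, against 3 without ADL lamb 3.

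CRP, LBP, ITIH4 and SOCS3 formed a second set, also put together after the correlations were seen. Their 6 pairs had r between 0.68 and 0.89, and 3 of them passed. LBP and SOCS3 had r = 0.89 (exact permutation p = 0.00670, adjusted 0.0481) and rho = 0.69 (exact permutation p = 0.0694, adjusted 0.240). CRP and LBP had r = 0.88 (exact permutation p = 0.00429, adjusted 0.0386) and rho = 0.88 (exact permutation p = 0.00724, adjusted 0.0543). LBP and ITIH4 had r = 0.85 (exact permutation p = 0.00826, adjusted 0.0481) and rho = 0.86 (exact permutation p = 0.0107, adjusted 0.0689). Without the 2 farthest lambs r in this set lay between 0.66 and 0.79.

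Between the first set and the second, the 16 pairs had r between 0.41 and 0.77 and 0 passed. As deviations from the group means these 16 lay between -0.10 and 0.71. Without the 2 lambs farthest from the median of the first gene of a pair, they ran from -0.026 to 0.98. LOC101120204 had r = 0.98 with SOCS3 and 0.87 with LBP without RES lambs 1 and 2. ORM1 and ITIH4 had r = -0.026 without ADL lamb 1 and RES lamb 2. The sets were not cleanly apart. LOC105601867 and ITIH4, of different sets, had r = 0.77, above the r = 0.68 of CRP and SOCS3 within the second set. In ADL, lambs 1 and 3 lay below lambs 2 and 4 for each gene of both sets. In RES, lambs 1 and 2 were the highest for each gene of the first set, but RES lamb 1 was the lowest RES lamb for CRP, LBP and SOCS3 of the second. With 4 lambs in a group no correlation within a group is given. RES lamb 1 ranked 2 of 8 for both serum amyloid A genes and ORM1, yet ranked 7 for SOCS3, 6 for LBP, 5 for CRP and 4 for ITIH4. RES lamb 4 was highest for CRP and LBP and ranked 6 for ORM1. ADL lamb 1 was lowest for 8 of the 10 genes.

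IL1RN and ITIH3 joined neither set. IL1RN had r between -0.063 and 0.42 with the other 9 genes. ITIH3 had r between -0.59 and 0.42, negative in 6 of its 9 pairs. No pair with either gene passed.

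**Figure D4:**
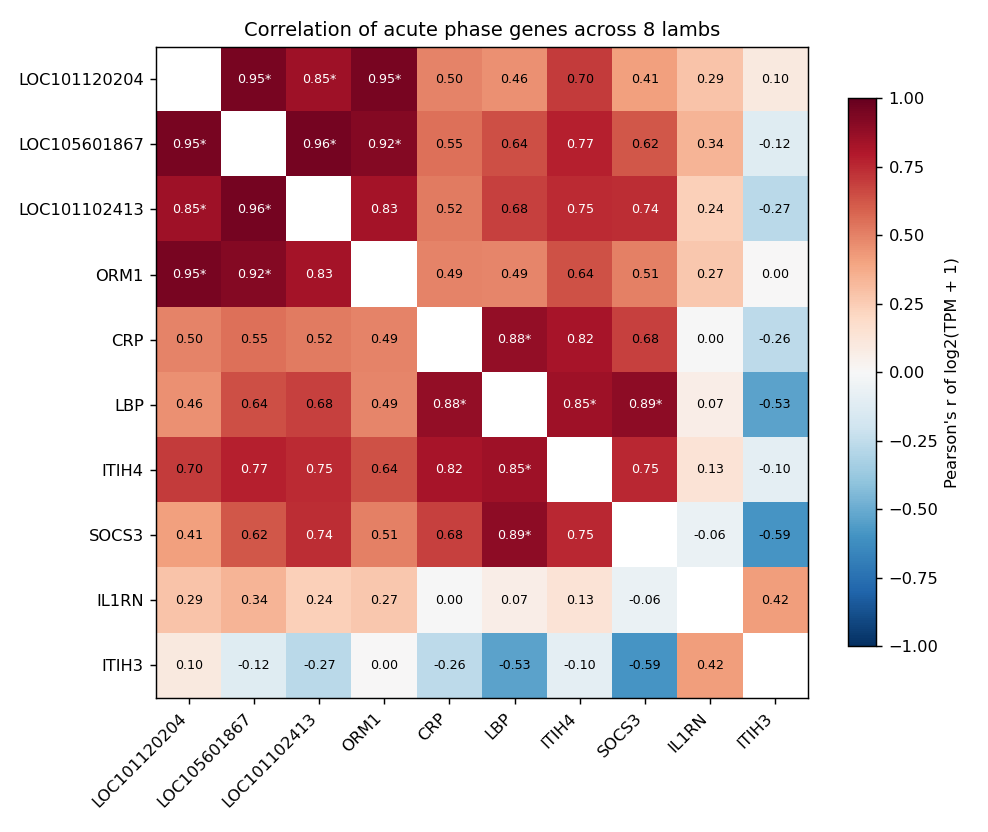
Pearson's r of log2(TPM + 1) across the 8 lambs for each pair of the 10 genes, from blue (negative) to red (positive), with a star where the exact permutation p adjusted over 45 pairs is under 0.05. The block at the upper left holds the serum amyloid A genes, haptoglobin and ORM1 (0.83 to 0.96), the next block CRP, LBP, ITIH4 and SOCS3 (0.68 to 0.89).

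Other genes listed as positive acute phase plasma proteins lay, as a list, about where the median gene lay. The list was broad, with AMBP, ITIH2 and MT2A in it, and how each of its genes responds in sheep was not checked. Of 28 tested, 0 were called and 20 were higher in RES (15 after size-factor scaling), with a median log2 difference of 0.096 (0.014 after scaling). Of all tested genes 71% were higher, or 51.6% after that scaling. An unadjusted p under 0.05 was found for 3 of the 28, all higher in RES, beside 10.4% of all genes on that side. After size-factor scaling 1 was higher, beside 3.4% of all genes, and 1 lower, beside 4.25%. C4BPA, an inhibitor of complement, had 638 ± 108 TPM in RES and 436 ± 49.3 TPM in ADL (0.54 ± 0.14, limma adjusted p = 0.395). The terminal complement component C9 had 2239 ± 189 TPM in RES and 1830 ± 165 TPM in ADL (0.29 ± 0.11, limma adjusted p = 0.395). Ceruloplasmin, the copper carrier encoded by CP, had 1133 ± 160 TPM in RES and 802 ± 302 TPM in ADL (0.56 ± 0.23, limma adjusted p = 0.414). VTN, the adhesion protein vitronectin, went the other way, with 3357 ± 1173 TPM in RES and 5080 ± 1302 TPM in ADL (-0.62 ± 0.29, limma adjusted p = 0.430).

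Negative acute phase proteins were mostly lower in RES, and none was called by limma. Of 16 tested, 14 were lower, or 15 after size-factor scaling, with a median log2 difference of -0.17. Of all tested genes 71% were higher, or 51.6% after that scaling. The groups did not overlap for 2 of the 16, both lower in RES, beside 0.781% of all genes on that side. An unadjusted p under 0.05 on the lower side was found for 2 of the 16, beside 1.5% of all genes. After size-factor scaling it was 4 of the 16 beside 4.25% of all genes, and after quantile normalization 2 of the 16 beside 4.43%. APOM, a carrier of sphingosine 1-phosphate, had 96.1 ± 9.45 TPM in RES and 121 ± 10.6 TPM in ADL (-0.33 ± 0.099, limma adjusted p = 0.395). Transferrin, the iron carrier encoded by TF, had 7643 ± 850 TPM in RES and 9775 ± 351 TPM in ADL (-0.36 ± 0.12, limma adjusted p = 0.395). TF passed in the authors' deposited table (adjusted p = 0.0123). LOC101117785, the row matched to APOA1, had 1225 ± 358 TPM in RES and 1514 ± 117 TPM in ADL, and the vitamin E transfer protein TTPA 218 ± 32.8 TPM in RES and 254 ± 39.5 TPM in ADL.

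The genes that carry the inducing signals were present, but IL6 itself was at 0 reads in all 8 livers, which allows up to 0.325 to 0.370 TPM at 3 reads per library (counting error only). IL1B lay between 8.82 and 21.0 TPM in RES and between 11.6 and 22.0 TPM in ADL. TNF lay between 0.217 and 0.672 TPM in RES and between 0.488 and 1.06 TPM in ADL. The groups overlapped for IL1B and for TNF.

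In the list of interleukin-6 and gp130 signalling, 13 genes were tested, 0 called and 4 had an unadjusted p under 0.05, all higher in RES, beside 10.4% of all genes. They were the phosphatase PTPN11 (31.3 ± 3.12 TPM in RES, 25.3 ± 1.99 TPM in ADL), the kinase JAK2 (8.98 ± 0.938 TPM in RES, 7.06 ± 0.668 TPM in ADL), STAT3 (50.5 ± 4.14 TPM in RES, 42.7 ± 1.94 TPM in ADL) and the shared receptor chain IL6ST (128 ± 9.01 TPM in RES, 111 ± 3.44 TPM in ADL). After size-factor scaling 1 of the 13 was at that mark, beside 3.4% of all genes, and after quantile normalization 0. STAT3 mediates the signal of interleukin-6. It was 1 of 3 genes of the list whose groups did not overlap, beside 6.61% of all genes not overlapping and higher in RES, and it had 46.8 to 56.2 TPM in RES and 40.5 to 45.1 TPM in ADL.

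The list of interleukin-1, tumour necrosis factor and NF-kB signalling held 24 tested genes, of which 0 were called and 6 had an unadjusted p under 0.05, all higher in RES, beside 10.4% of all genes. After size-factor scaling this was 1 higher, beside 3.4% of all genes, and 1 lower, beside 4.25%. The 4 of smallest p were CHUK, a kinase of the NF-kB pathway (16.3 ± 0.412 TPM in RES, 13.3 ± 0.558 TPM in ADL), IRAK1, a kinase of the interleukin-1 receptor (7.80 ± 0.939 TPM in RES, 6.16 ± 0.446 TPM in ADL), the adaptor TRAF6 (9.33 ± 0.560 TPM in RES, 7.90 ± 0.526 TPM in ADL) and the interleukin-18 inhibitor IL18BP (7.36 ± 0.457 TPM in RES, 5.27 ± 1.58 TPM in ADL). Each had a limma adjusted p of 0.395 to 0.411.

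Among 8 tested genes of lipopolysaccharide sensing none had an unadjusted p under 0.05, and 4 were higher and 4 lower in RES. The 4 of smallest p were the adaptors LOC105601870, the row matched to TICAM2, and TICAM1, with the receptor TLR2 (6.65 ± 2.64 TPM in RES, 8.56 ± 1.55 TPM in ADL) and LY96, the partner of TLR4 (8.95 ± 2.14 TPM in RES, 7.35 ± 1.11 TPM in ADL). The 10 liver transcription factor genes were all higher in RES, where 71% of all genes were, and 0 were called. After size-factor scaling 6 of the 10 were higher, beside 51.6% of all genes. After STAT3, those of smallest p were HNF4A (136 ± 11.7 TPM in RES, 119 ± 7.70 TPM in ADL), NR5A2 and RELA.

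Genes whose level followed the mean z score of the 10 most closely were found by Pearson's r over the 8 lambs, as a description. This mean did not stand for each of the 10 alike. Although it includes them, ITIH3 had r = -0.051 with it and IL1RN 0.38, against 0.70 (SOCS3) to 0.94 (LOC105601867) for the others. Of 13427 other tested genes, 8.62% had r of at least 0.7 and 1.74% r of at most -0.7. The closest genes were ARHGEF17 (r = 0.99, rho = 0.95), the bile salt export pump ABCB11 (r = 0.97, rho = 0.86), EEPD1, BNIP1, THOP1, PTPA, RNF185 and TMX2 (r between 0.95 and 0.96). ABCB11 stood at 238, 258, 222 and 226 TPM in RES lambs 1 to 4, against 168, 211, 186 and 216 TPM in ADL lambs 1 to 4. These 8 genes varied 1.48-fold to 2.07-fold between livers, far less than serum amyloid A. PTPRK, DUSP6, ACOT13 and DCAF16 ran most opposite (r of -0.93 or below).

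Single genes had other neighbours. LOC101120204 was followed most closely by CFAP20, LIMK2, TMEM186 and TRAPPC12 (r between 0.96 and 0.97). LOC105601867 was followed by TRAPPC12, LOC105614853, AAR2 and ITPA, and haptoglobin by LOC105614853, the proteasome subunit PSMA7, the complement C4 gene LOC101123419 and ITPA. For haptoglobin these had r between 0.96 and 0.99. LOC101123419 stood at 407, 453, 385 and 352 TPM in RES lambs 1 to 4, against 283, 358, 339 and 405 TPM in ADL lambs 1 to 4. These are the extremes of 13427 genes over 8 lambs, given with no test.

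Markers of other liver and blood cells were measured beside these levels. Summed over the 11 of 12 Kupffer cell and macrophage markers found in the table, RES lambs 1 to 4 had 1515, 882, 1016 and 767 TPM, against 1193, 1082, 913 and 1153 TPM in ADL lambs 1 to 4. Summed over the 11 of 12 neutrophil markers found, 7 of them below a mean of 1 TPM, RES lambs 1 to 4 had 91.1, 49.2, 66.1 and 51.6 TPM, against 58.2, 77.0, 51.6 and 58.3 TPM in ADL lambs 1 to 4. FCGR3A, which other leukocytes also express, made up 89.8% of this sum on average. Without it, a split made after the sums were seen, the other 10 markers had 8.92, 5.63, 5.33 and 9.01 TPM in RES lambs 1 to 4, against 3.75, 10.1, 3.58 and 5.21 TPM in ADL lambs 1 to 4. The livers highest in IL1RN, RES lamb 1 and ADL lamb 2, had the highest sums with FCGR3A, and without it RES lamb 4 lay between them. RES lamb 2, highest in serum amyloid A, had the lowest sum with FCGR3A but not without it. The 8 markers of B and plasma cells, 6 of them below a mean of 1 TPM, summed to 14.6 to 40.05 TPM in RES and 14.5 to 20.3 TPM in ADL, highest in RES lamb 2. JCHAIN made up 85.3% of this sum on average. Without it, also split after the sums were seen, RES lamb 2 had 4.97 TPM and ADL lamb 1 had 4.94 TPM. RES lamb 2 also had the lowest hepatocyte marker sum, of which ALB, itself a negative acute phase gene, made up 69.6% on average. Without ALB the hepatocyte sum was 52244 TPM in RES lamb 2, and it was lower in RES lamb 1 (50905 TPM), RES lamb 4 (51906 TPM) and ADL lamb 2 (50632 TPM). Over the 8 of 11 T and natural killer cell markers the sum was 21.7 to 36.6 TPM in RES and 21.6 to 33.9 TPM in ADL. The 9 endothelial markers summed to 215 to 235 TPM in RES and 199.9 to 222 TPM in ADL, the 9 stellate cell and fibroblast markers to 251 to 303 TPM in RES and 249 to 389 TPM in ADL, and the 7 bile duct markers to 17.1 to 24.1 TPM in RES and 14.0 to 22.6 TPM in ADL. The 5 of 7 erythroid markers found summed to 3.46 to 36.2 TPM in RES and 20.8 to 73.0 TPM in ADL. HBB made up 98.7% of this sum on average, and the other 4 together lay between 0.0662 TPM (RES lamb 1) and 1.35 TPM (ADL lamb 2). HBQ1 was at 0 in all livers and no other marker was at 0 in all 8. None of the markers that were tested was called. Markers below a mean of 1 TPM were not tested, which left 4 neutrophil markers, 2 of B and plasma cells and 1 erythroid marker in the test. The part of the markers in the levels of the acute phase genes was not tested.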

How the data were processed

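The authors deposited TPM values for 27729 genes in 8 liver libraries beside each gene's length. Further columns that the authors deposited hold the authors' own DESeq2 comparison: a mean of normalized counts (unit signal), log2 fold changes, their standard error and the Wald statistic (each a score), p-values and adjusted p-values. The tools that the authors used, per the submitters' processing notes, include DESeq2 1.12.4 and bcl2fastq 1.8.4. No source used here names the aligner, counter, strand setting or genome build. Reads recovered from TPM and the deposited gene length were whole for 100% of values (tolerance 1e-06).

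The groups were compared in R 4.3.3 with limma 3.58.1 (lmFit, eBayes with a trend) on log2(TPM + 1), over the 13437 genes averaging 1 TPM or more, with Benjamini-Hochberg adjustment over all of them. Such differences understate changes of low genes. Confidence intervals use limma's moderated standard error. Pair correlations were tested by exact permutation (numpy 2.4.6). The members and lists were chosen with earlier results of these data known. Of 194 listed symbols 181 were found, 5 through RefSeq identifiers and 4 through aliases; HP is the haptoglobin gene itself and was left out of its list. Named genes are the 10 members, up to 4 per list by smallest unadjusted p, and those most like the members by r. Others are said to be looked up later. Each library is a separate lamb, and no pair within a group agreed within sampling noise. Alternatives were pseudocounts, filters, scalings, variance models, voom, left-out lambs and the lamb number as a block. Scripts were tested on simulated data.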

Additional observations from a re-analysis of the deposited data

Results flagged for a closer look

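Within groups of 4 lambs, 20 sets of values were checked for a lamb far from the other 3, each on the log2(TPM + 1) scale and in TPM. For normal and independent values chance alone flags about 1 in 20 such sets. That rate need not hold for TPM or for genes that vary together. IL1RN in RES lamb 1, at 27.8 TPM against 16.8 to 17.5 TPM in the other RES lambs, stood apart, with a gap of 0.923 of the group's range on the log2(TPM + 1) scale and 0.939 in TPM. Haptoglobin (LOC101102413) in RES lamb 2, at 4179 TPM against 372 to 954 TPM in the other RES lambs, stood apart in TPM, with a gap of 0.847 of the range, but not on the log2 scale. The limit for 4 lambs is 0.829.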

How the results depend on the processing

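Of the 10 genes 0 were called under each of the 18 alternatives, and 172 of the 180 differences kept their direction; the smallest adjusted p was 0.328 (limma, mean of at least 5 TPM). The other 8, all of ITIH3 or IL1RN, turned direction: ITIH3 was -0.070 after size-factor scaling and ran from -0.061 to 0.13 with 1 lamb left out, and IL1RN from -0.17 to 0.14. With 1 lamb left out LOC101120204 ran from 3.00 to 4.99, LOC105601867 from 1.74 to 3.23, haptoglobin from 1.15 to 3.34, ORM1 from 2.58 to 4.95, CRP from 0.38 to 0.58, LBP from 0.46 to 1.07, ITIH4 from 0.19 to 0.37 and SOCS3 from 0.085 to 0.62. Over all genes 0 were called (1594 at an unadjusted p under 0.05), and 0 or 1 without 1 lamb (RGS6 without ADL lamb 1). With no filter on low values 1 was called (LOC101120736, a pseudogene at a mean of 0.141 TPM). These 2 genes were looked up after the values were seen. Limma's voom on recovered reads called 0.

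The number of correlated pairs, 8 of 45, was 4 after size-factor scaling, 5 as deviations from the group means, and ran from 0 to 7 with 1 lamb left out; it was 0 without ADL lamb 1 and 0 without RES lamb 2, the extremes of most genes, and 3 without ADL lamb 3. The cause was not tested. With the lamb number as a replicate block 0 genes were called. Deviations of same-numbered lambs correlated between -0.12 and 0.15, and 1 of the 4 RES lambs was closest to its own number. With so few lambs these values cannot settle whether the numbers pair the lambs, and the labels do not say. With the block the SE of the log2 difference was 0.22 for LBP and 0.17 for SOCS3, against 0.44 and 0.37 without it. For IL1RN alone it was larger with the block, at 0.23 against 0.21 without. For each of the other members it was smaller with the block. Only 4 lambs per group and a wide spread limit what could be detected for the inducible genes.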
